A study of Mus musculus with 12 samples.

Results

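The T helper 17 (Th17) genes Rora, Ahr, Il23r, Il17a, Il17f, Il22 and Ccl20 were followed in sorted mouse regulatory T (Treg) cells that lacked the lineage transcription factor Foxp3, with or without the mTOR complex 2 subunit Rictor. Treg cells are CD4 T cells that restrain immune responses. The 7 genes were taken by symbol from the 25189 genes of the deposited count table. The rule names symbols and no measured value, but these genes were chosen with earlier results of these data known. The same holds for the gene lists read below, so counts of called genes do not come from a blind choice. RNA sequencing covered 12 libraries of splenic Treg cells from 4-week-old female mice, 4 for each of 3 genotypes. Double-deficient cells carried the Foxp3ΔEGFPiCre allele, which makes a reporter and Cre recombinase and no working Foxp3, together with RictorΔ/Δ and the R26YFP reporter. Foxp3-deficient cells carried the Foxp3ΔEGFPiCre allele and R26YFP with Rictor intact. WT cells carried Foxp3RFP, a working Foxp3 gene with a red reporter. The mice were Foxp3ΔEGFPiCre/RFP or Foxp3ΔEGFPiCre/+ females, so the hosts of the deficient cells also had a Foxp3 gene that works in the Treg cells that use their other X chromosome. Cells were double-sorted as CD4+ and either RFP+ or YFP+, and by the labels the sorting reporter cannot be told apart from the genotype. Cre was driven from the Foxp3 locus, so Rictor was deleted only in cells that had switched that locus on. The mouse behind each library is not labelled, so a p-value here reflects the spread between these samples only, which may be partly technical.

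Th17 cells are CD4 T cells that guard mucosal surfaces against bacteria and fungi and that drive tissue inflammation when they are not held in check. TGF-beta and IL-6 start the program through STAT3, retinoic acid receptor-related orphan receptors and the aryl hydrocarbon receptor shape it, and IL-23 sustains it through its receptor. Treg cells share part of this machinery, and Foxp3 is known to hold back Th17 cytokine genes in them.

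Rora and Ahr encode transcription factors: the nuclear receptor ROR alpha, which promotes Th17 cytokine genes, and the aryl hydrocarbon receptor, which binds dietary and microbial ligands and is needed for much IL-22 production by mouse T cells. Il23r encodes the specific chain of the IL-23 receptor. Il17a and Il17f encode the related cytokines IL-17A and IL-17F, which act as homodimers or as a heterodimer on epithelial and stromal cells and call in neutrophils. Il22 encodes an epithelium-directed cytokine, and Ccl20 the chemokine that attracts cells bearing CCR6. On GRCm38, per GENCODE M21, all 7 are protein-coding. Il17a (chr1:20730905-20734496, plus strand) and Il17f (chr1:20777146-20790617, minus strand) are neighbours on chromosome 1, which also holds Ccl20 (chr1:83116766-83119167, plus strand). Rora lies at chr9:68653786-69388246 on the plus strand, Ahr at chr12:35497974-35535038 on the minus strand, Il23r at chr6:67422932-67491855 on the minus strand and Il22 at chr10:118204942-118210047 on the plus strand. Exons of Rora and Ahr overlap an annotated gene on the opposite strand (Gm15511 and Gm48236). The strand setting of the counting is not given in the sources used here, so reads of these pairs cannot be told apart.

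RefSeq promoter sequences (GRCm38.p6, 250 bases before to 50 bases after the gene's RefSeq start) were matched for 6 of the 7 genes, all but Ahr. For Il17f and Il22 the RefSeq start is not the GENCODE start given above, and the Il17f window lies inside the GENCODE gene. AGGTCA, a half-site that ROR nuclear receptors bind, occurred on either strand in 4 of these 6 promoters, against 16.0% of 27025 mouse promoters of the same length. Only these 6 letters were searched and no flanking bases, so a match is not particular to ROR receptors. Those 4 promoters are printed 5′ to 3′ along the gene, with the half-site in capitals. The windows of Rora and of the effector gene Il22, which held no half-site, are not printed.
Il17a (chr1:20730655-20730954, plus strand): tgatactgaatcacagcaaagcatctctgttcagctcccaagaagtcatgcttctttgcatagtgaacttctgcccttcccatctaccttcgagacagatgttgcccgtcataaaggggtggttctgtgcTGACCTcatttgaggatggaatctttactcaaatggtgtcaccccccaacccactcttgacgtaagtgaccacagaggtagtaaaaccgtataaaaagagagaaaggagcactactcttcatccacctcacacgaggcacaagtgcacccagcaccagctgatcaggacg
Il17f (chr1:20784221-20784520, minus strand): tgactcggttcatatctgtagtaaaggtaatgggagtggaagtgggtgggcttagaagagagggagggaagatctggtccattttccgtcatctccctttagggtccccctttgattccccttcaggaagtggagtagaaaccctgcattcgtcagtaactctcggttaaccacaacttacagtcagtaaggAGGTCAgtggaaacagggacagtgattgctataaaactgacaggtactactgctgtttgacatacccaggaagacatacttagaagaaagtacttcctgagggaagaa
Ccl20 (chr1:83116516-83116815, plus strand): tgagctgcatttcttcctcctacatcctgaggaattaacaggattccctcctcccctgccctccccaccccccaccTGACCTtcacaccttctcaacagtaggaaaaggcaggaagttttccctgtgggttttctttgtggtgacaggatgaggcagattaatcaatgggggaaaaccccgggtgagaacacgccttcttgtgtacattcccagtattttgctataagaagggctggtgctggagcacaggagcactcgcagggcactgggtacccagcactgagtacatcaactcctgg
Il23r (chr6:67491806-67492105, minus strand): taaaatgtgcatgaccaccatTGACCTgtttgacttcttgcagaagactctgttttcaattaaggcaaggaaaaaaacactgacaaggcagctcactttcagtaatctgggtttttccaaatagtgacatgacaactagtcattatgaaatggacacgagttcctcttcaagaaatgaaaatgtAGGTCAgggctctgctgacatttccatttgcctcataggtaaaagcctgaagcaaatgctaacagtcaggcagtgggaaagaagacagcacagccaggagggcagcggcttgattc
Positions are counted from the RefSeq start to the first printed base of the match. The half-site lay at -120 in Il17a (minus strand), at -58 in Il17f (plus strand) and at -174 in Ccl20 (minus strand). In Il23r it lay at -229 (minus strand) and -66 (plus strand). No half-site was in the windows of Rora and Il22. The core that the aryl hydrocarbon receptor binds, GCGTG on either strand, was in the Ccl20 window at -61 and the Rora window at -167, both on the minus strand, against 32.5% of all promoters. The AP-1 motif TGANTCA was in the Il17a window only, at -244, against 7.93% of all promoters. The STAT motif TTCNNNGAA, searched on both strands, was in none of the 6 windows, against 8.47% of all promoters. The TATA motif TATAAA, searched on the gene's strand, was at -31 in Il17a, at -29 in Il17f and at -170 in Il22, against 8.88% of all promoters. No 2 of these matches overlapped. These matches describe letters in a window and show neither binding nor a cause.

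The libraries held 15769737 to 26114044 reads assigned to genes. Values are CPM of the TMM-scaled library size, given as mean ± SD, and 13196 genes had enough reads for the edgeR fit. Foxp3, the targeted gene, averaged 102 ± 13.7 CPM in double-deficient, 118 ± 22.8 CPM in Foxp3-deficient and 633 ± 75.8 CPM in WT cells (SD, n = 4 each), with log2 fold changes of -2.63 (adjusted p = 2.95e-09) in double-deficient against WT cells and -2.42 (adjusted p = 1.18e-08) in Foxp3-deficient against WT cells. Rictor averaged 141 ± 12.6 CPM in double-deficient, 189 ± 31.2 CPM in Foxp3-deficient and 148 ± 14.4 CPM in WT cells, and counts over the whole gene do not check a deletion of part of it. Cd4 averaged 867 CPM in double-deficient, 1080 CPM in Foxp3-deficient and 757 CPM in WT cells, and all 9 CD4 T and Treg cell markers were above 1 CPM in every group, with summed levels of 5760 to 6500, 5180 to 6360 and 6570 to 6990 CPM. These sums hide differences between markers. Il2ra averaged 260, 185 and 534 CPM and Ikzf2 106, 140 and 347 CPM in the same order of groups. Ctla4 averaged 347, 246 and 349 CPM. The share of reads without a unique alignment was 31.1% to 33.1% in double-deficient, 23.0% to 29.5% in Foxp3-deficient and 25.9% to 28.5% in WT libraries, so it moved with the double-deficient genotype, and its part in the results was not tested. All 7 myeloid markers stayed under 1 CPM in each group. The summed level of 7 B cell markers was 773 to 940 CPM in double-deficient, 671 to 833 CPM in Foxp3-deficient and 1260 to 1480 CPM in WT libraries. Of the further lists, 6 dendritic cell markers in the table summed to 5.45 to 7.75, 3.46 to 5.98 and 4.74 to 8.63 CPM in the same order of groups, 6 CD8 T and NK cell markers to 77.0 to 111, 45.1 to 148 and 56.6 to 70.3 CPM, and 5 innate lymphoid and NKT cell markers to 67.0 to 100, 45.9 to 141 and 119 to 167 CPM.

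Without Foxp3, the Th17 effector genes, Il23r and Ahr were read at higher levels than in WT, while Rora did not pass the test. Among the 6 genes tested, 5 were higher in Foxp3-deficient cells than in WT (Ahr, Il23r, Il17a, Il17f and Ccl20), beside 6.99% of all tested genes that were higher, and none was lower. The same 5 were higher in double-deficient cells than in WT, beside 15.8% of all tested genes. These comparisons share the WT libraries. Only Rora and Ahr would have passed the read filter on WT libraries alone, and the other 4 tested genes passed through the deficient libraries, so their count says little beyond their being read there. Il22 fell below the filter, with 18 reads in each deficient group and 0 in WT cells. In bulk RNA, more cells that express a gene and more RNA per expressing cell cannot be told apart.

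**Figure D1:**
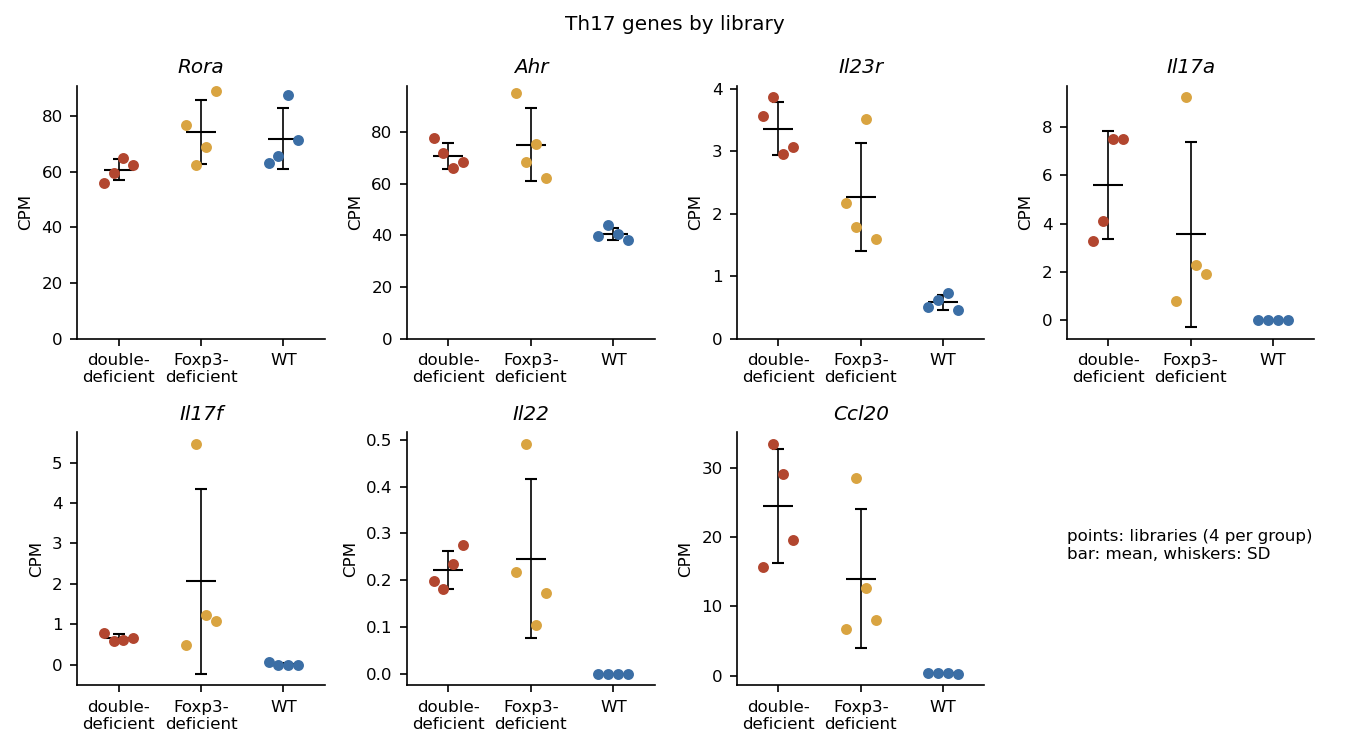
Level of each Th17 gene in each library in CPM (linear axes), by genotype, with each point a library, the bar the mean and the whiskers the SD (n = 4). For Ahr, Il23r, Il17a, Il17f, Il22 and Ccl20, every deficient library lies above every WT library, while the Rora groups overlap. Il23r, Il17a, Il17f and Ccl20 passed the read filter only through the deficient libraries, and Il22 fell below it. How many of all genes separate this way was not counted.

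Ahr stood at 77.5, 71.9, 65.9 and 68.3 CPM in the double-deficient libraries 2, 3, 4 and 5, at 95, 68.2, 75.2 and 62.2 CPM in the Foxp3-deficient libraries 1, 3, 4 and 5, and at 39.7, 43.8, 40.5 and 38.2 CPM in the WT libraries 1, 3, 4 and 5. Both deficient groups lay above all WT libraries, and they overlapped each other. The log2 fold change was 0.81 ± 0.12 (SE) in double-deficient against WT cells, a 1.75-fold difference (adjusted p = 0.00013), and 0.89 ± 0.12 in Foxp3-deficient against WT cells, a 1.85-fold difference (adjusted p = 6.41e-05).

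Rora stood at 56.1, 59.8, 64.9 and 62.4 CPM in double-deficient, at 76.8, 62.6, 69.0 and 89.3 CPM in Foxp3-deficient and at 63.1, 65.6, 87.7 and 71.5 CPM in WT libraries. The 3 groups overlapped, with the double-deficient libraries at the low end. The log2 fold change in Foxp3-deficient against WT cells was 0.05 ± 0.12, with a 95% interval of -0.21 to 0.30 (adjusted p = 0.857), and in double-deficient against WT cells it was -0.24 ± 0.12, with an interval of -0.50 to 0.01 (adjusted p = 0.132).

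Il23r had 72, 86, 63 and 56 reads in double-deficient, 40, 29, 68 and 37 reads in Foxp3-deficient and 9, 10, 20 and 11 reads in WT libraries. Scaled to library size, this was 3.36 ± 0.433 CPM in double-deficient, 2.27 ± 0.864 CPM in Foxp3-deficient and 0.581 ± 0.12 CPM in WT cells (SD, n = 4 each). Every deficient library was above every WT library, and Foxp3-deficient 4 reached into the double-deficient range. The receptor gene was 5.71-fold higher in double-deficient cells than in WT (log2 fold change 2.51 ± 0.32, adjusted p = 3.83e-05) and 3.85-fold higher in Foxp3-deficient cells than in WT (1.94 ± 0.32, adjusted p = 0.000528).

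Il17a had 66, 91, 160 and 137 reads in double-deficient and 15, 150, 44 and 44 reads in Foxp3-deficient libraries, against 0, 0, 1 and 0 reads in WT libraries. The gene was all but unread in WT cells, and the deficient libraries spread widely, with Foxp3-deficient 3 far above the other Foxp3-deficient libraries. Scaled for depth, the 454 double-deficient reads against 1 WT read came to 470 times the WT level (counting interval 83.9 to 18600), and the 253 Foxp3-deficient reads to 278 times (49.5 to 11000). Both differences passed the edgeR test (adjusted p = 4.11e-05 in double-deficient and 0.000136 in Foxp3-deficient against WT cells). WT 4 held the single read. Without it, and with the WT group set at 3 reads, the ratio to WT was 106 in double-deficient and 62.9 in Foxp3-deficient cells. Without Foxp3-deficient 3, the remaining 103 Foxp3-deficient reads gave a ratio of 143.

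Il17f had 16, 13, 13 and 12 reads in double-deficient and 9, 89, 24 and 25 reads in Foxp3-deficient libraries, against 1, 0, 0 and 0 reads in WT libraries. The double-deficient libraries were close together, and Foxp3-deficient 3 again stood above its group. Against 1 WT read, the 54 double-deficient reads came to 55.9 times the WT level (counting interval 9.61 to 2250) and the 147 Foxp3-deficient reads to 162 times (28.5 to 6420). The adjusted p was 0.00236 in double-deficient and 0.000193 in Foxp3-deficient against WT cells. WT 1 held the read. Without it, and with the WT group set at 3 reads, the ratio to WT was 14.8 in double-deficient and 42.7 in Foxp3-deficient cells. With only Foxp3-deficient 3 left out, the Foxp3-deficient ratio was 80.8 from 58 reads.

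Il22 had 4, 4, 5 and 5 reads in double-deficient and 4, 8, 2 and 4 reads in Foxp3-deficient libraries, and 0 reads in each WT library. A count of 0 has an exact 95% interval of up to 3.69 reads over the WT group. With the WT group set at 3 reads, the ratio to WT was 6.21 in double-deficient and 6.59 in Foxp3-deficient cells. These ratios are not lower limits, because the 18 reads of each deficient group have a 95% interval of 10.7 to 28.4. Without WT 4, the ratio in Foxp3-deficient cells was 4.48. The exact two-sided permutation test on CPM gave p = 0.0286 for each deficient group against WT, the smallest p that 4 against 4 libraries allow, and 0.0429 after adjustment over 3 comparisons. With 1 WT library left out, whether 1, 3, 4 or 5, the exact permutation p in Foxp3-deficient against WT cells was 0.0571.

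Ccl20 had 318, 741, 620 and 359 reads in double-deficient, 125, 464, 243 and 184 reads in Foxp3-deficient and 6, 5, 10 and 7 reads in WT libraries. These are 24.5 ± 8.16 CPM in double-deficient, 13.9 ± 10 CPM in Foxp3-deficient and 0.328 ± 0.0327 CPM in WT cells (SD, n = 4 each). The WT libraries were uniformly low, and Foxp3-deficient 3 reached into the double-deficient range. The chemokine gene was 72.9-fold higher in double-deficient cells than in WT (log2 fold change 6.19 ± 0.54, adjusted p = 2.11e-06) and 41.3-fold higher in Foxp3-deficient cells than in WT (5.37 ± 0.54, adjusted p = 1.2e-05).

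**Figure D2:**
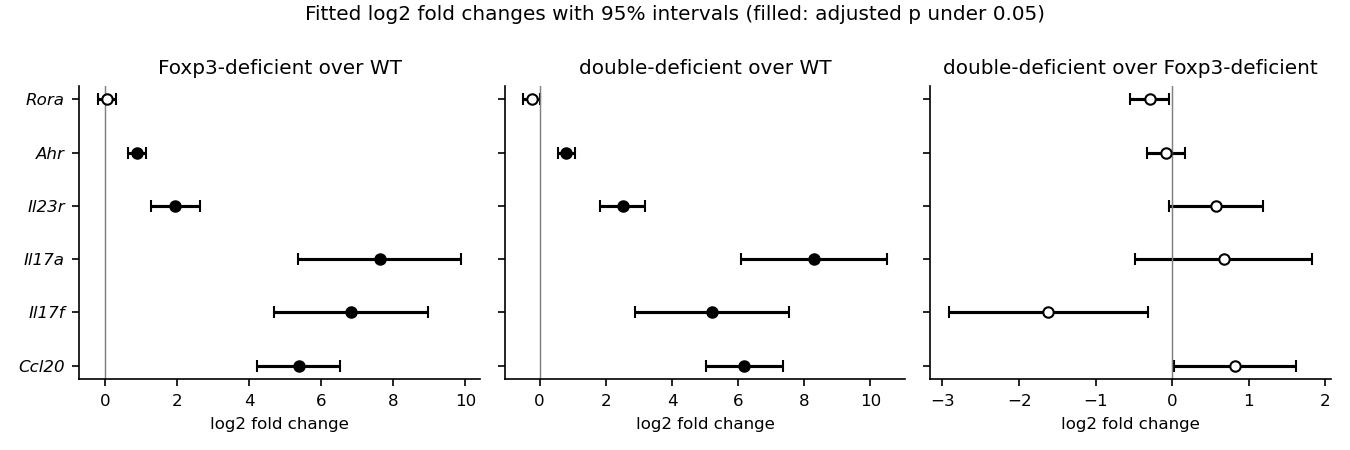
Fitted log2 fold changes of the 6 tested Th17 genes with 95% intervals from the edgeR fit, with the comparisons as columns on separate linear axes and filled points for adjusted p under 0.05. Against WT, 5 genes are filled and lie right of 0 in both deficient groups, while between the deficient groups no point is filled. Il17a and Il17f rest on 1 WT read each.

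Levels set per exonic length (RPKM, the CPM divided by exonic kilobases) put the genes in a different order in the 3 genotypes. In double-deficient cells the order of mean levels was Ccl20 (17.2 RPKM), Ahr (11.5), Il17a (4.77), Rora (4.65), Il23r (1.35), Il17f (0.327) and Il22 (0.20). In Foxp3-deficient cells it was Ahr (12.2 RPKM), Ccl20 (9.81), Rora (5.69), Il17a (3.03), Il17f (1.02), Il23r (0.911) and Il22 (0.222). In WT cells Ahr (6.58 RPKM) and Rora (5.51) came first, Il23r (0.234) and Ccl20 (0.231) were at about the same low level, and Il17a (0.00784), Il17f (0.00702) and Il22 (0) were at 0 to 1 read. Neighbours in that order within the larger of their SDs were Ccl20 and Ahr, and Il17a and Rora, in double-deficient cells, every pair down to Il17f and Il23r in Foxp3-deficient cells, and Il23r and Ccl20, Il17a and Il17f, and Il17f and Il22 in WT cells.

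Loss of Rictor on top of Foxp3 did not move any of these genes past the threshold. None of the 6 tested genes was called in double-deficient against Foxp3-deficient cells, beside 27.2% of all tested genes called in either direction. At an unadjusted p under 0.05 there were 3 (Rora, Il17f and Ccl20). DESeq2 called none and limma-voom called 1, Ccl20. The estimates differed in direction. Il17f had a log2 fold change of -1.62 ± 0.61, with a 95% interval of -2.92 to -0.32 (adjusted p = 0.0604). Ccl20 had 0.82 ± 0.37, with an interval of 0.02 to 1.62 (adjusted p = 0.116), and Il17a had 0.67 ± 0.55, with an interval of -0.49 to 1.83 (adjusted p = 0.379). For Il23r the value was 0.57 ± 0.29, with an interval of -0.04 to 1.18 (adjusted p = 0.151), for Rora -0.29 ± 0.12, with an interval of -0.55 to -0.04 (adjusted p = 0.083), and for Ahr -0.08 ± 0.12, with an interval of -0.33 to 0.16 (adjusted p = 0.617). Il22 differed by -0.0246 CPM (exact permutation p = 0.914).

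Single Foxp3-deficient libraries decided several of these calls. Without Foxp3-deficient 3, Il17a was higher in double-deficient cells (log2 fold change 1.74, adjusted p = 0.00551), Ccl20 was higher (1.43, adjusted p = 0.00134) and Rora was lower (-0.37, adjusted p = 0.0295), and the Il22 difference turned to 0.0571 CPM. Without Foxp3-deficient 4, Il23r was higher (0.86, adjusted p = 0.0461). Il17f was lower without Foxp3-deficient 1 (-1.95, adjusted p = 0.0267) or Foxp3-deficient 5 (-1.83, adjusted p = 0.0431). Without Foxp3-deficient 3 the Il17f estimate shrank to -0.51 (adjusted p = 0.428). The Ahr estimate turned to 0.05 without Foxp3-deficient 1. With each library's trend with gene length and GC content removed, the estimates in double-deficient against Foxp3-deficient cells came to -0.10 for Rora (adjusted p = 0.594), 0.31 for Il23r (adjusted p = 0.475), 0.37 for Il17a (adjusted p = 0.619) and 0.54 for Ccl20 (adjusted p = 0.264), and Rora in double-deficient against WT cells to -0.07 (adjusted p = 0.692).

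The balance of Il17f and Il17a reads, a measure chosen after their values were seen, separated the deficient groups. Il17f made up 19.5%, 12.5%, 7.51% and 8.05% of the reads of the pair in the double-deficient libraries 2, 3, 4 and 5 and 37.5%, 37.2%, 35.3% and 36.2% in the Foxp3-deficient libraries 1, 3, 4 and 5. The groups did not overlap. The Foxp3-deficient shares had an SD of 1.01 percentage points, with read sums for the pair from 24 to 239. That SD is smaller than the counting error and does not measure precision. Foxp3-deficient 1, with 24 reads, had a 95% Wilson interval of 21.2% to 57.3%. The 95% Wilson intervals, which cover counting error and not the dependence among PCR reads, ran from 12.4% to 29.4% for double-deficient 2, the highest of its group, and from 25% to 47.2% for Foxp3-deficient 4, the lowest of its group. The mean was 11.9% ± 5.55 in double-deficient and 36.6% ± 1.01 in Foxp3-deficient cells (SD, n = 4 each), a difference of -24.7 percentage points with an exact two-sided permutation p of 0.0286, the smallest that 4 against 4 libraries allow. Leaving out any 1 of the 8 libraries kept the difference between -27.2 and -23.2 points. In WT cells the pair had 2 reads, too few for a share.

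**Figure D3:**
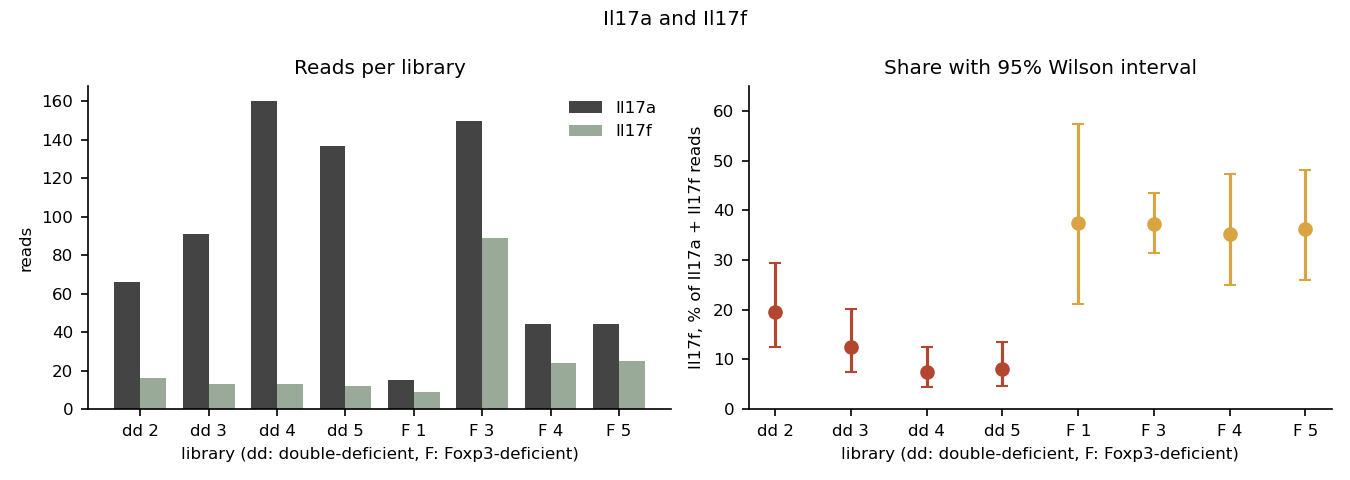
Reads of Il17a and Il17f in each deficient library (left) and Il17f as a percentage of the reads of the pair, with 95% Wilson intervals (right, dd for double-deficient and F for Foxp3-deficient). The double-deficient shares lie at 7.51% to 19.5% and the Foxp3-deficient shares at 35.3% to 37.5%.

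Gamma delta T cells also make IL-17A and IL-17F, and their 7 markers summed to 40.8 to 54.9 CPM in double-deficient, 28.7 to 49.2 CPM in Foxp3-deficient and 13.9 to 20.1 CPM in WT libraries. None of the 7 was at 0 reads over a whole group. Tcrg-C1, a gamma chain constant segment, averaged 27.5 CPM in double-deficient, 17.9 CPM in Foxp3-deficient and 2.96 CPM in WT cells. Tcrg-C2 averaged 6.14, 3.34 and 1.63 CPM in the same order of groups, and every deficient library was above every WT library for both segments. Cd163l1, a scavenger receptor known from mouse gamma delta T cells that make IL-17, averaged 2.86, 7.59 and 0.0568 CPM in that order, with no overlap with WT. Trdc, the constant segment of the delta chain, averaged 7.12, 7.96 and 8.98 CPM, Tcrg-C4 5.94, 2.75 and 3.93 CPM, and Blk 0.874, 0.237 and 0.282 CPM. Sox13, a transcription factor of the same cells, had 1 read in double-deficient, 52 in Foxp3-deficient and 4 in WT cells. The summed level, Tcrg-C1, Tcrg-C2 and Cd163l1 were thus higher in both deficient groups, as Il17a and Il17f were, and the part of these cells in the result was not tested. The 5 innate lymphoid and NKT cell markers were carried by Tox2 (50.2, 73.8 and 107 CPM in the same order of groups) and Il1rl1 (27.2, 7.98 and 33.8 CPM). Their other markers averaged more in both deficient groups than in WT, with Kit at 8.18, 1.39 and 0.976 CPM, Zbtb16 at 0.885, 0.151 and 0 CPM and Klrb1b at 0.0997, 0.0325 and 0 CPM, and their part in the result was likewise not tested.

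Further genes of the Th17 pathway were read from 7 lists, beside a background of 6.99% higher and 6.74% lower in Foxp3-deficient against WT, 15.8% and 16.8% in double-deficient against WT, and 13.9% and 13.3% in double-deficient against Foxp3-deficient cells. The median log2 fold change of all tested genes was 0.00, -0.03 and -0.02 in these comparisons. Of 13 transcription factors and kinases of Th17 induction, 3 were higher and 4 lower in Foxp3-deficient against WT cells, with a list median of 0.28. Sgk1, a salt- and mTORC2-responsive kinase that promotes Th17 cells in mice, averaged 205 ± 29.6 CPM in double-deficient, 214 ± 53.6 CPM in Foxp3-deficient and 52.2 ± 13.2 CPM in WT cells (log2 fold change 2.04, adjusted p = 5.29e-06, in Foxp3-deficient against WT). Prdm1, which encodes the repressor BLIMP-1, averaged 40.8 ± 1.32, 23.6 ± 5.1 and 45.6 ± 9.6 CPM in the same order of groups, and was lower in Foxp3-deficient cells than in WT (-0.95, adjusted p = 0.000714). The other calls were Runx1 (0.34) and Maf (0.37) higher, and Hif1a (-0.40), Irf4 (-0.47) and Batf (-0.71) lower. Each of them was lost without 1 library: Runx1 without WT 1 or 5 or Foxp3-deficient 4 or 5, Hif1a without WT 4 or 5 or Foxp3-deficient 1, 3 or 4, Irf4 without any 1 WT library, Foxp3-deficient 4 or double-deficient 3, and Batf without any 1 WT library, Foxp3-deficient 3 or 4 or double-deficient 3 or 4. Maf was lost without WT 1, 3 or 5, Foxp3-deficient 4 or 5 or any 1 double-deficient library.

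In double-deficient against Foxp3-deficient cells the same list had 3 higher and 2 lower, with a median of 0.21. Prdm1 was higher (0.79, adjusted p = 0.00359), so its double-deficient level stood near the WT level. Irf4 (0.56) and Batf (0.67), a pair of factors that open chromatin at Th17 loci, were also higher, while Stat3 (-0.34) and Runx1 (-0.30) were lower. The Batf call was lost without Foxp3-deficient 4 or double-deficient 3, 4 or 5, the Stat3 call without Foxp3-deficient 1 or double-deficient 5, and the Runx1 call without Foxp3-deficient 4 or 5 or double-deficient 3 or 5. In double-deficient against WT cells 3 were higher (Sgk1, Junb and Rbpj) and 1 lower (Stat3), with a median of 0.13. Sgk1 stood at 1.98 (adjusted p = 4.58e-06) and Stat3, the factor downstream of IL-6 and IL-23, at -0.42 (adjusted p = 0.0038). The Junb call was lost without WT 1, 4 or 5 or double-deficient 2, 4 or 5, and the Rbpj call without any 1 WT or double-deficient library or Foxp3-deficient 4.

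Of 10 receptor chains and kinases for the Th17-inducing cytokines, 3 were higher and 2 lower in Foxp3-deficient against WT cells, with a list median of -0.02. Il1r1, the IL-1 receptor chain that lets Th17 cells respond to IL-1 beta, averaged 1.85 ± 0.735 CPM in double-deficient, 4.14 ± 1.04 CPM in Foxp3-deficient and 0.429 ± 0.161 CPM in WT cells. It was 9.86-fold higher in Foxp3-deficient cells than in WT (adjusted p = 2.01e-05) and 4.39-fold higher in double-deficient cells than in WT (adjusted p = 0.000816). The TGF-beta receptor chains parted, with Tgfbr2 higher (0.70, adjusted p = 0.000454) and Tgfbr1 lower (-0.56, adjusted p = 0.00398) in Foxp3-deficient against WT cells. Jak2, the kinase that serves the IL-23 receptor, was higher (0.37, adjusted p = 0.00352) and Il21r was lower (-0.43, adjusted p = 0.000482).

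In double-deficient against Foxp3-deficient cells none of the 10 was higher and 6 were lower, with a median of -0.31. Il21r was lower (-0.39, adjusted p = 0.00171) under every alternative setting. Il1r1 (-1.17, adjusted p = 0.0191) was lost without Foxp3-deficient 1 or double-deficient 3 or 4, and Il6st, the shared signal chain of IL-6 (-0.52), without Foxp3-deficient 1 or double-deficient 4 or 5. Il6ra was lost without Foxp3-deficient 4 or double-deficient 3, 4 or 5, Tgfbr1 without Foxp3-deficient 1 or double-deficient 4 or 5, and Tgfbr2 without any 1 WT library, Foxp3-deficient 1, 4 or 5 or double-deficient 3, 4 or 5. In double-deficient against WT cells 3 were higher and 5 lower, with a median of -0.31, among them Il21r (-0.82, adjusted p = 7.11e-07) and Tgfbr1 (-0.97, adjusted p = 2.89e-05). The further calls higher were Tgfbr2 (0.37, lost without WT 1 or 4 or double-deficient 2 or 3) and Jak2 (0.26, lost without WT 3 or double-deficient 3 or 4). Il12rb1, the chain that IL-23 and IL-12 receptors share, was lower (-0.59, adjusted p = 0.0145), as were Il6ra and Il6st, which were both lost without WT 1, 3 or 4 or double-deficient 3, 4 or 5, and Il6st also without Foxp3-deficient 4 or 5.

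Of 14 other genes associated with Th17 cells, 10 were tested, and 6 were higher and none lower in Foxp3-deficient against WT cells, with a list median of 1.11. Ltb4r1, the leukotriene B4 receptor, averaged 29.5 ± 7.47 CPM in double-deficient, 11.8 ± 1.42 CPM in Foxp3-deficient and 2.69 ± 0.364 CPM in WT cells. The ion channel genes Tmem176a and Tmem176b averaged 27.9 ± 5.12 and 38.5 ± 7.32 CPM in double-deficient, 12.9 ± 4.78 and 22.0 ± 8.1 CPM in Foxp3-deficient, and 3.47 ± 0.446 and 6.34 ± 0.543 CPM in WT cells. All 3 passed the test in each comparison, with log2 fold changes of 1.33, 1.11 and 0.81 in double-deficient against Foxp3-deficient cells (adjusted p = 0.000296, 0.00366 and 0.0126). Ccr6, the receptor for CCL20, averaged 36.6 ± 6.47 CPM in double-deficient, 45.6 ± 8.04 CPM in Foxp3-deficient and 24.6 ± 3.18 CPM in WT cells, and was higher in Foxp3-deficient cells than in WT (0.89, adjusted p = 0.000707). Il21, the cytokine that feeds Th17 growth, was higher in Foxp3-deficient cells than in WT (3.10, adjusted p = 0.0143, lost with limma-voom), and so was Cxcr6 (1.32, adjusted p = 0.0255), whose call was lost without WT 1, 3 or 5. In double-deficient against Foxp3-deficient cells 7 were higher and none lower, with a median of 0.88, and of these the Lif call was lost without any 1 WT library, Foxp3-deficient 3, 4 or 5 or double-deficient 2, 3 or 4, and the Gpr65 call without Foxp3-deficient 1 or 4 or double-deficient 2, 3 or 5. Il10, the anti-inflammatory cytokine that Treg cells and some Th17 cells make, averaged 40.9 ± 16.5 CPM in double-deficient, 4.88 ± 4.34 CPM in Foxp3-deficient and 8.55 ± 4.22 CPM in WT cells (3.08, adjusted p = 0.00575, in double-deficient against Foxp3-deficient). In double-deficient against WT cells 7 were higher and none lower, with a median of 2.43.

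**Figure D4:**
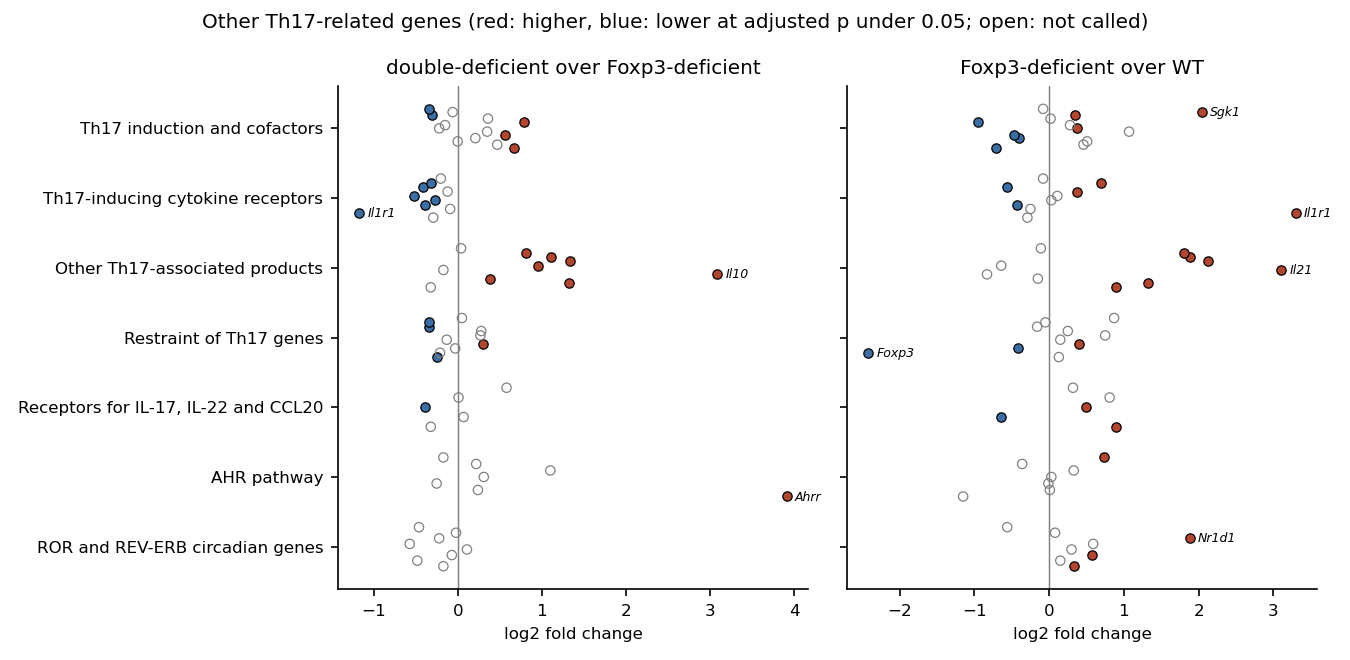
Fitted log2 fold changes of the tested genes of 7 Th17-related lists (rows), in double-deficient over Foxp3-deficient cells (left) and Foxp3-deficient over WT cells (right), on linear axes. Filled points passed the test (red higher, blue lower) and open points did not, and no gene among the other Th17-associated products is blue in either panel.

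Of 10 genes in a list named for restraint of the Th17 program, 1 was higher and 2 lower in Foxp3-deficient against WT cells, with a list median of 0.14, and 1 of the 2 was the targeted Foxp3. Gfi1, a repressor of Th17 genes, averaged 65.4 ± 4.91 CPM in double-deficient, 67.0 ± 6.57 CPM in Foxp3-deficient and 89.4 ± 8.49 CPM in WT cells (log2 fold change -0.42, adjusted p = 0.00797, in Foxp3-deficient against WT). Ikzf3 encodes Aiolos, which silences Il2 and is known to promote Th17 differentiation in mice, so it does not do what the list's name says. It averaged 234 ± 7.12, 190 ± 10.7 and 144 ± 17.2 CPM in the same order of groups and was higher in each comparison. In double-deficient against Foxp3-deficient cells 1 was higher (Ikzf3, 0.30, adjusted p = 0.0183) and 3 lower, with a median of -0.08. Stat5a (-0.34, adjusted p = 0.00851) and Stat5b (-0.34, adjusted p = 0.00891), which carry the IL-2 signal that opposes STAT3 at Il17a, were lower, as was Ets1 (-0.25). The Stat5a and Stat5b calls held without any 1 library. The Ets1 call was lost without any 1 double-deficient library, WT 3 or 4 or Foxp3-deficient 1, 4 or 5. In double-deficient against WT cells 2 were higher (Socs3, 0.54, and Ikzf3, 0.70) and 4 lower (Foxp3, Gfi1, Stat5a and Stat5b), with a median of -0.05. Of the 5 tested receptor chains for IL-17, IL-22 and CCL20, Il17ra (0.50, adjusted p = 0.00776) and Ccr6 were higher and Il10rb (-0.64, adjusted p = 7.97e-06) lower in Foxp3-deficient against WT cells, with a list median of 0.50. In double-deficient against Foxp3-deficient cells 1 was lower, Il17ra (-0.39, adjusted p = 0.0238, lost without Foxp3-deficient 1 or double-deficient 4 or 5), with a median of 0.01. In double-deficient against WT cells Ccr6 (0.57, adjusted p = 0.00986) was higher and Il10rb (-0.57, adjusted p = 2.02e-05) lower, with a median of 0.57.

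Of 7 tested genes of the aryl hydrocarbon receptor pathway, 1 was higher and none lower in Foxp3-deficient against WT cells, with a list median of 0.01. Tiparp, a direct target that feeds back on the receptor, averaged 70.5 ± 5.58 CPM in double-deficient, 79.1 ± 37.1 CPM in Foxp3-deficient and 47.3 ± 4.09 CPM in WT cells (0.74, adjusted p = 0.0401, in Foxp3-deficient against WT). That call was lost without any 1 WT or any 1 double-deficient library. Ahrr, the receptor's repressor and target, averaged 1.21 ± 0.827 CPM in double-deficient, 0.065 CPM in Foxp3-deficient and 0.166 ± 0.232 CPM in WT cells, and was the 1 gene higher in double-deficient against Foxp3-deficient cells (adjusted p = 0.0136, list median 0.24). It was lost when Foxp3-deficient 1 and 3 were both left out. Ahrr and Nqo1 were higher in double-deficient against WT cells, with a median of 0.34, and the Ahrr call was lost without WT 1, 3 or 4 or double-deficient 2 or 4 and the Nqo1 call without WT 3 or 5 or double-deficient 3 or 5. Cyp1a1 and Cyp1b1, enzymes that the receptor classically induces, had too few reads to be tested.

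Of 8 tested circadian genes that ROR alpha and the REV-ERB repressors regulate, 3 were higher and none lower in Foxp3-deficient against WT cells, with a list median of 0.32. Nr1d1, which encodes REV-ERB alpha, the repressor that competes for ROR half-sites, averaged 37.1 ± 5.86 CPM in double-deficient, 43.2 ± 15.4 CPM in Foxp3-deficient and 11.7 ± 1.16 CPM in WT cells. It was 3.17-fold higher in double-deficient cells than in WT (adjusted p = 2.98e-05) and 3.68-fold higher in Foxp3-deficient cells than in WT (adjusted p = 1.23e-05). Cry1, a clock repressor, was higher in both comparisons (0.51, adjusted p = 0.000153, in double-deficient and 0.58, adjusted p = 5.55e-05, in Foxp3-deficient against WT). Arntl, which encodes the clock activator BMAL1, was higher in Foxp3-deficient against WT cells (0.33, adjusted p = 0.0218), a call lost without WT 3 or 4. In double-deficient against WT cells Per2 was lower (-1.02, adjusted p = 0.0164, lost without WT 3), with a list median of 0.11. None of the 8 was called in double-deficient against Foxp3-deficient cells, with a median of -0.19 and Cry1 at -0.07 (adjusted p = 0.499).

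Some calls of these lists also ended in other settings. With length and GC trends removed, Stat3, Batf, Runx1, Il6ra, Il6st, Tgfbr2, Gpr65, Ets1, Stat5a and Il17ra lost their calls in double-deficient against Foxp3-deficient cells, Il6ra, Il6st and Jak2 in double-deficient against WT cells, and Maf in Foxp3-deficient against WT cells. In the fit of only the groups compared, Batf, Il6ra, Tgfbr1, Tgfbr2, Lif, Gpr65, Ets1 and Il17ra lost theirs in double-deficient against Foxp3-deficient cells, and Batf, Irf4, Maf, Hif1a, Cxcr6, Tiparp and Arntl in Foxp3-deficient against WT cells. Without a low-count filter, Batf, Runx1, Il6ra, Tgfbr2, Lif and Ets1 lost theirs in double-deficient against Foxp3-deficient cells, Junb, Rbpj, Il6ra, Il6st and Ahrr in double-deficient against WT cells, and Batf, Cxcr6 and Tiparp in Foxp3-deficient against WT cells.

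The genes whose log2 CPM followed each Th17 gene most closely were ranked by Pearson's r over the 12 libraries, as a description. Genes with a mean below 1 CPM, unnamed gene models, pseudogenes and T cell receptor or immunoglobulin segments were left out of the ranking. Il17f was below that mean, so it could not appear as a neighbour of Il17a or Ccl20. Since the libraries fall into 3 genotypes, r mostly follows the group means. Il17a was most like Ccl20 (r = 0.984), Rnase4 and Trp53i13 (0.976 each). Ccl20 was most like Lmo4 (0.987), Il17a (0.984) and Aqp3 (0.984), a water and glycerol channel that averaged 139 ± 27.9 CPM in double-deficient, 98.2 ± 7.94 CPM in Foxp3-deficient and 14.8 ± 2.11 CPM in WT cells. Il17f was closest not to Il17a but to Vps37b (0.956), Pde4b (0.954) and Nynrin (0.952), whose means were highest in Foxp3-deficient cells, as its own was. Pde4b, a phosphodiesterase that breaks down cyclic AMP, averaged 260 ± 16.6 CPM in double-deficient, 299 ± 34.0 CPM in Foxp3-deficient and 189 ± 5.18 CPM in WT cells. Il23r was closest to Apol7e (0.98), Aqp3 (0.956) and Tmem71 (0.955). Ahr was closest to Xylt2 (0.968), Cmah (0.967) and the integrin gene Itgb3 (0.961), which averaged 159 ± 21.3 CPM in double-deficient, 159 ± 32.6 CPM in Foxp3-deficient and 79.7 ± 3.04 CPM in WT cells. Rora had the least close neighbours, among them G3bp2 (0.849) and the Src family kinase gene Fyn (0.843).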

How the data were processed

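RNA from double-sorted splenic Treg cells was sequenced in 12 libraries. Per the labels' protocols, a low-input SMART-Seq v4 kit gave the cDNA. The authors deposited raw counts per gene without normalization. STAR 2.5.1b aligned the reads to mm10 (GRCm38) and HTSeq counted them per gene, per the submitters' processing notes. Which HTSeq version, Gencode release and strand setting were used is not given in the sources used here. HTSeq summary counts (3 kinds) stayed out of library sizes and tests: reads in no gene were 4.63% to 9.27%, ambiguous reads 2.29% to 2.58% and reads without a unique alignment 23.0% to 33.1% of a library. Libraries held 15769737 to 26114044 assigned reads. Positions and exonic lengths came from GENCODE M21 (GRCm38).

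Counts were filtered with filterByExpr (about 0.497 CPM in 4 libraries), TMM-scaled and tested in R 4.3.3 with edgeR 4.0.16 (robust quasi-likelihood F test, 1 fit of 12 libraries, no covariates). The biological coefficient of variation was 17.4%. P-values were Benjamini-Hochberg adjusted over 13196 genes, and a gene was called under 0.05. The SE is the absolute log2 fold change over the square root of F, and 95% intervals use the t distribution of the fit. Il22, below the filter, was compared by exact two-sided permutation of CPM. Ratios against 1 read carry exact conditional intervals. Ratios against 0 reads set that group at 3 reads and carry no interval. The conditional intervals and the Wilson intervals of shares cover counting error only, because PCR reads lacking molecular identifiers are not independent molecules. No library copied another. In a simulation of Foxp3-deficient against WT over 13065 genes, 90 of 100 genes changed 2-fold and 100 of 100 changed 4-fold were recovered, with 9 false calls. Every simulated gene had the same biological spread, and the changed genes were drawn above a minimum of reads. The recovery therefore does not hold for genes that spread widely between Foxp3-deficient libraries, such as Il17a, Il17f and Ccl20.

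The Th17 genes, the lists and the tests were chosen with earlier results of these data known. Named genes were the 7, Foxp3, Rictor, up to 3 called genes per list, direction and comparison by adjusted p (the gene with the highest mean where none was called), and the 3 genes most correlated with each. Genes named beyond these (Cd4, Il2ra, Ikzf2, Ctla4, the gamma delta T, innate lymphoid and NKT cell markers, Batf, Il21, Cxcr6, Lif, Gpr65, Ccr6, Tgfbr1, Tgfbr2, Il6ra, Il6st, Gfi1, Cyp1a1 and Cyp1b1 where the rule did not give them) were chosen after their values were seen. Some genes are not reported here. Alternatives were upper quartile and relative log expression scaling, no filter, a stricter filter (mean of 5 CPM, with 1 CPM in 4 libraries), limma-voom (limma 3.58.1), DESeq2 1.42.0, a fit of only the groups compared, a replicate block, removal of length and GC trends with and without the block, and each library left out. Leaving out Foxp3-deficient 1 and 3 together and the Il17f share were chosen after seeing the data.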

Additional observations from a re-analysis of the deposited data

Results flagged for a closer look

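Of 20 groups of 4 libraries examined for a library far from the rest of its group, 3 held one. For normally spread values chance gives about 1 in 20. That rate does not apply to Il17a and Il17f in WT cells, where 1 read against 0 always passes the limit. Il17f in Foxp3-deficient 3 was at 5.46 CPM, and the next Foxp3-deficient library was at 1.24 CPM, a gap of 0.849 of the group's range, past Dixon's 95% critical value. The same library was the highest of its group for Il17a, Il22 and Ccl20 without passing that limit. Il17a in WT 4 was at 0.0367 CPM with the other WT libraries at 0, which is 1 read. Il17f in WT 1 was at 0.0568 CPM with the other WT libraries at 0, also 1 read.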

How the results depend on the processing

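Against WT, the calls of Ahr, Il23r, Il17a, Il17f and Ccl20 held under every alternative in which the gene was tested. The stricter filter left 3 Th17 genes, so 2 were called in each deficient group, and in the fit of only the groups compared Il17f was not tested in Foxp3-deficient against WT cells. Leaving out each library kept 5 called in both. Over all genes, leave-one-out counts ran from 1332 to 1949 in Foxp3-deficient against WT (1812 with all libraries), 3089 to 5147 in double-deficient against WT (4299; 5746 without Foxp3-deficient 1 and 3) and 2153, without double-deficient 5, to 4430 in double-deficient against Foxp3-deficient cells (3585). The last count was 2382 with only the groups compared and 2064 with length and GC trends removed and the replicate block, which also moved the split to 1261 higher and 803 lower, against 1834 and 1751. Among the Th17 genes, double-deficient against Foxp3-deficient cells had 0 called, 0 to 3 with a library left out, 1 with limma-voom (Ccl20, 1.05), 1 with the replicate block (Ccl20, 0.93, adjusted p = 0.018), 1 with length and GC trends removed (Il17f, -1.73, adjusted p = 0.0492), and 2 without Foxp3-deficient 1 and 3 (Il17a, 1.42, and Ccl20, 1.26). Directions turned for values near 0: Rora in Foxp3-deficient against WT (-0.0549 to 0.156 with a library left out, below 0 without WT 1 or 3 or Foxp3-deficient 5), and Ahr between the deficient groups (-0.160 to 0.0502 with a library left out, 0.0149 with trends removed and the block, 0.047 without Foxp3-deficient 1 and 3). With a library left out, the Il22 difference ran from -0.0721 to 0.0571 CPM between the deficient groups (-0.0246 with all) and from 0.164 to 0.294 CPM in Foxp3-deficient against WT cells, whose call was lost without any 1 WT library. The causes were not tested. Of 404 recomputed log2 fold changes, 387 kept direction and side of the threshold.

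Whether same-numbered libraries came from the same mouse is not labelled, and their correlations do not settle it. Same-numbered libraries correlated at 0.029 to 0.203 in Foxp3-deficient against WT and at -0.052 to 0.062 in the other comparisons. Foxp3-deficient 3 and 5 and double-deficient 5 correlated best with the WT library of their own number. Foxp3-deficient 1 and 4 and double-deficient 3 and 4 did not. The main fit treated the libraries as unpaired. With the replicate block, 1783 genes were called in Foxp3-deficient against WT and 2756 in double-deficient against Foxp3-deficient cells, and not every library correlated best with its own number. Of the pathway genes, Stat3, Irf4, Il1r1, Tgfbr1, Tgfbr2, Gpr65 and Ets1 were not called with it in double-deficient against Foxp3-deficient cells, nor Tgfbr2, Il12rb1 and Ahrr in double-deficient against WT cells. Depth limits Il22, Il17f and, in WT cells, Il17a and Ccl20.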
